A study of Mus musculus with 4 samples.

Results

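The genes described here encode the parts of antigen presentation: every gene of the deposited table whose symbol begins with H2-, the prefix of the mouse major histocompatibility complex (MHC), together with B2m, Tap1, Tap2, Tapbp, Tapbpl, Erap1, Psmb8, Psmb9, Psmb10, Psme1, Psme2, Nlrc5, Ciita, Cd74, Rfx5, Rfxap, Rfxank, Ctss and Ifi30. This gave 63 of 34745 genes, of which 43 belong to the class I pathway, 16 to the class II pathway and 3 to a regulator shared by both, while H2-Ke6, a gene for a steroid dehydrogenase, carries the prefix by its position only. The table places 49 of the 63 on chromosome 17. RNA was sequenced from cultures of naive CD4+ T cells taken from the spleens of C57BL/6 mice and kept for 3 days under conditions that polarize towards regulatory T (Treg) cells. Libraries 13 and 15 came from wild-type mice, and libraries 22 and 24 from mice labelled Setd2-CD4 cre, with a recombinase driven by a T cell promoter that also acts in developing thymocytes. Setd2 encodes the enzyme that trimethylates histone H3 at lysine 36. The sources used here give neither the ages of the mice nor the deleted exons, nor do they say if each library stands for its own animal. P-values therefore reflect only how far the libraries lay from each other, and that spread may be technical.

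The 4 libraries held 14599957 to 16030869 counts, and 3 counts, the number that a count of 0 still allows, correspond to 0.184 to 0.201 CPM, the unit in which counts are scaled to a common library size. Setd2 itself, counted over the whole gene, stood at 137 and 146 CPM in wild type 13 and 15 and at 137 and 113 CPM in libraries 22 and 24, with a log2 fold change of -0.17 ± 0.14 (SE) and an adjusted p of 0.436. That count does not check the deletion, and the second group is therefore called knockout-labelled. The T cell markers Cd3e and Cd4 were present in every library, at 259 to 291 and 986 to 1257 CPM, and 0 of 14 T cell markers passed edgeR's test (3 at an unadjusted p below 0.05, 1 with DESeq2 and 0 with limma). Foxp3, the defining Treg factor, stood at 242 and 247 CPM in the wild-type libraries and at 31.9 and 75.8 CPM in the knockout-labelled ones, so both groups held its transcript but at levels that did not overlap. Of 8 Treg markers, 5 were lower in the knockout-labelled libraries and 0 higher, against the 10.1% of all genes called, and their summed level was 3068 to 3124 CPM in wild type against 2489 to 2551 CPM. These markers thus moved between the same groups as the genes described below, and their part in those results was not tested. Markers of CD8 T cells were also present, with Cd8a and Cd8b1 summing to 78.4 to 183 CPM and the groups overlapping.

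MHC class I molecules are made of a polymorphic heavy chain and the invariant light chain B2m, and they carry peptides from cytosolic proteins to the cell surface for CD8 T cells and natural killer cells. The peptides are cut by the immunoproteasome, carried into the endoplasmic reticulum by the TAP transporter, trimmed by ERAP1 and loaded with the help of tapasin. Class II molecules are pairs of alpha and beta chains held by the invariant chain Cd74, which cathepsin S (Ctss) degrades in endosomes before the exchange factor DM loads peptides for CD4 T cells. NLRC5 and CIITA are the transactivators of the class I and class II genes and act through promoter elements bound by the RFX complex. Nearly all mouse cells carry class I, whereas class II belongs mainly to B cells, dendritic cells and macrophages, and mouse T cells make little of it.

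Of the 63 genes, 45 passed the filter on low counts. The 18 others were 15 class I heavy-chain genes and 3 class II chain genes; 15 of them had 0 counts in all 4 libraries, and the highest count in any library among the rest was 21. The class II genes at 0 were H2-Ea-ps, H2-Pa and H2-Pb. C57BL/6 mice are known to lack a working H2-Ea gene, which is why their cells do not display the I-E molecule even where H2-Eb1 is transcribed. In wild type, the highest levels per length belonged to the class I surface molecule itself. Per kilobase of the longest annotated transcript, B2m stood at 2390 ± 262 CPM (SD, n = 2), H2-D1 at 1138 ± 51.5 and H2-K1 at 1072 ± 100, and the classical heavy chains did not differ from each other beyond their spread. H2-Q7 at 209 ± 28.1, H2-Q4 at 178 ± 13.1, Ctss at 177 ± 10.4, Psmb8 at 173 ± 12.1 and H2-Q6 at 167 ± 24.5 CPM per kilobase formed the next group, in which neighbours again did not differ beyond their spread.

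Class II chains lay well below that. On the same scale of CPM per kilobase in wild type, H2-Eb1 reached 26.7 ± 3.40, H2-Ab1 13.3 ± 2.48 and H2-Aa 5.47 ± 0.676. Cd74 stood at 29.3 ± 3.88 and Ciita at 0.337 ± 0.0442 CPM per kilobase, near the bottom of the order. The authors' deposited FPKM use other lengths, which for H2-K1 were 3.89 times and for Tap1 3.00 times the longest annotated transcript. On that FPKM scale B2m (2621 and 2251 in wild type 13 and 15), H2-D1 (808 and 761) and H2-K1 (300 and 264, to the nearest whole number) kept the 3 highest places, but H2-K1 fell behind H2-D1 by more than their spread, so the order of these heavy chains depends on the length used. H2-Eb1 (41.8 and 35.0 FPKM) stayed above H2-Ab1 (7.87 and 6.05 FPKM) and H2-Aa (7.62 and 6.42 FPKM) on both scales.

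**Figure D1:**
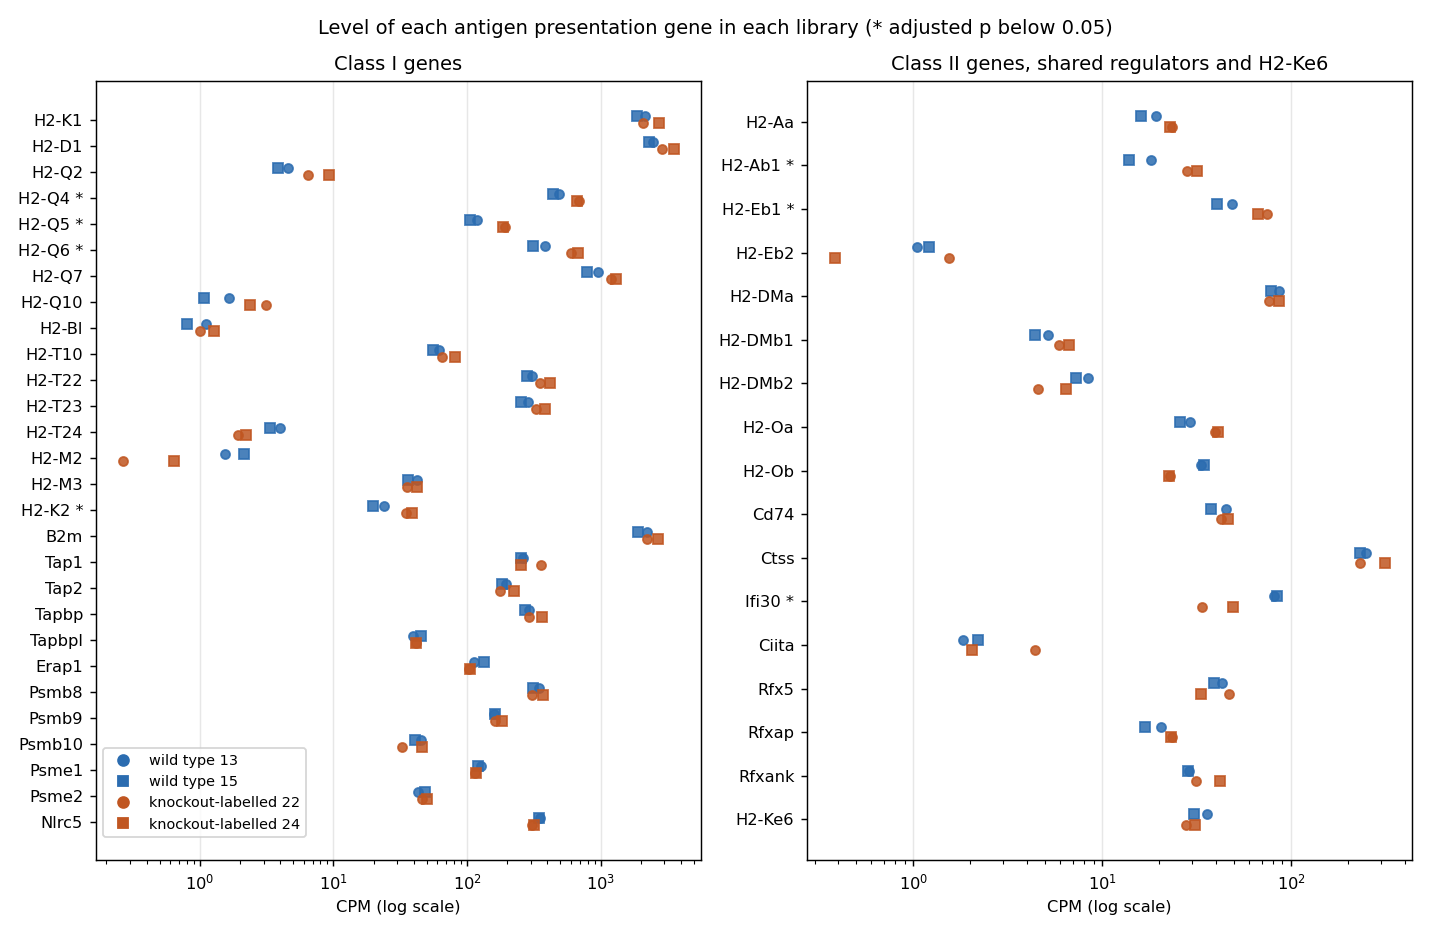
Level of each of the 45 genes that passed the filter in each library, in CPM on a log axis, with class I genes on the left and class II genes, shared regulators and H2-Ke6 on the right; circles and squares are the libraries of each group and asterisks mark an adjusted p below 0.05. H2-K1, H2-D1 and B2m lie between 1877 and 3524 CPM in every library, while the class II chains H2-Aa and H2-Ab1 lie between 14.0 and 31.6 CPM.

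Between the groups, 6 antigen presentation genes were higher and 1 was lower in the knockout-labelled libraries at an adjusted p below 0.05, of 45 tested. Over all 13279 genes tested the share called was 10.1% (5.53% higher and 4.59% lower), against 15.6% of these 45. The 6 were the class I heavy-chain genes H2-Q4, H2-Q5, H2-Q6 and H2-K2 and the class II beta chains H2-Ab1 and H2-Eb1. The 1 that was lower was Ifi30, the lysosomal thiol reductase that unfolds disulfide-bonded antigens. The median log2 fold change was 0.24 over the 45 genes and -0.0013 over all genes tested. In 21 of the 45 genes both knockout-labelled libraries lay above both wild-type libraries, and in 8 both lay below; of all genes tested the groups did not overlap in 63.8% (31.1% higher and 32.7% lower), so the total of 29 is close to that background and differs from it in its split between directions.

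**Figure D2:**
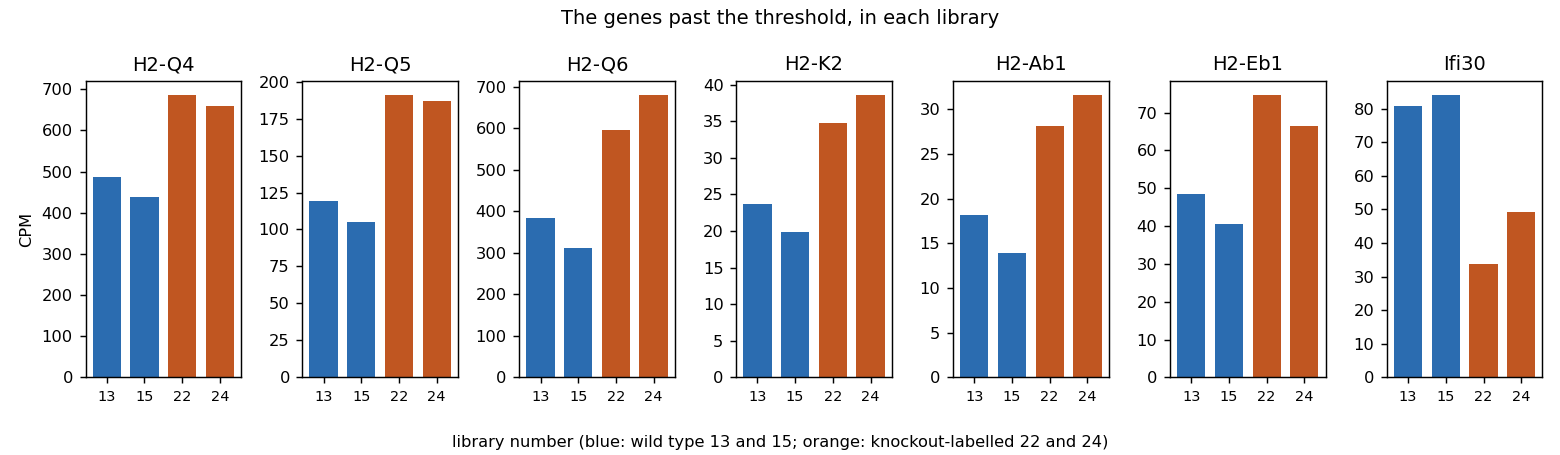
CPM in each library of the 7 genes with an adjusted p below 0.05, with wild-type libraries 13 and 15 in blue and knockout-labelled libraries 22 and 24 in orange; each panel has its own axis from 0. In the 6 genes that were higher, libraries 22 and 24 both stand above 13 and 15, by 1.46-fold for H2-Q4 to 1.85-fold for H2-Ab1 between group means, and in Ifi30 both stand below.

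Class I heavy chains were the largest group, with 31 genes, of which 16 passed the filter; edgeR's test called 4 higher and 0 lower, against 10 and 2 at an unadjusted p below 0.05, 5 and 0 with DESeq2, and 3 and 1 or 3 and 0 with limma on log2(FPKM + 1) or log2(FPKM + 0.1). Their summed level was 7294 and 6496 CPM in wild type 13 and 15 against 8445 and 10051 CPM in knockout-labelled 22 and 24, a ratio of group means of 1.34. Library 24 was the highest and library 15 the lowest, and the groups did not overlap. The median log2 fold change of the 16 was 0.41. Of the 16, 11 were non-overlapping and higher, and 2, H2-M2 and H2-T24, were non-overlapping and lower. EdgeR's test called 25% of the 16, against 10.1% of all genes tested. The groups did not overlap in 81.25% of the 16, against 63.8% of all genes tested. Levels also differed in concert within the groups: library 13 exceeded 15 in 15 of the 16 genes and library 24 exceeded 22 in 13 of the 16.

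Promoters of heavy chains that passed the test (H2-Q4 and H2-Q6) and that did not (H2-K1 and H2-D1) are shown so that their sequences can be compared. RefSeq promoter sequence (build GRCm38.p6) was matched for 33 of the 45 genes, and the 250 bases before the listed start were searched on both strands. In the stretches that follow, each printed 5′ to 3′ on the gene's own strand, capitals mark an NF-kB form (GGGA, any 4 bases, then CC), an interferon form (GAA, any 2 bases, then GAAA, seen here on the reverse strand as TTTCACTTC) and, downstream of these, an X2 form (TGACG or TGATG) with the Y box (ATTGG, the reverse of CCAAT) within 10 to 25 bases. They belong to H2-K1 at chr17:34000354-34000463 on the minus strand and, on the plus strand, H2-D1 at chr17:35262918-35263027, H2-Q4 at chr17:35379439-35379547 and H2-Q6 at chr17:35424672-35424780.
H2-K1: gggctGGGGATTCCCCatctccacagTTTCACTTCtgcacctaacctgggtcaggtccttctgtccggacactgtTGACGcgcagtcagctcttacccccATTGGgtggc
H2-D1: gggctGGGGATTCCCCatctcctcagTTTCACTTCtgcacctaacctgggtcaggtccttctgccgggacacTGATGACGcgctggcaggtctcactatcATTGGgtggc
H2-Q4: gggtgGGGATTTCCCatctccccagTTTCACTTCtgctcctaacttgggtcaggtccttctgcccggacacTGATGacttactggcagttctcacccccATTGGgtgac
H2-Q6: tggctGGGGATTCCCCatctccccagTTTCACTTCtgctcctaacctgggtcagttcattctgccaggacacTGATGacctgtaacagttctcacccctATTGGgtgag

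All 3 elements stand in the same order in these 4 stretches. The NF-kB form was present in 8 of the 11 heavy-chain promoters that were matched and in 17.6% of all 32851 promoters of the same length, and the interferon form in 8 of 11 against 6.31%. The pair of X2 form and Y box was present in 7 of 11 against 2.27% where TGATG was allowed beside TGACG, and in 4 of 11 against 0.868% with TGACG alone, a set that includes H2-K1 and H2-D1 and leaves out H2-Q4 and H2-Q6. This search took the X2 form in either orientation, and also CCAAT upstream of it. Among the 7, H2-M2 matched only as CCAAT followed by TGATG, unlike the order in the printed stretches. The Y box by itself (CCAAT) was present in 10 of 11 against 33.8%, and the longer interferon form (GAAA, any 2 bases, then GAAA), a separate form with wider spacing, in 2 of 11 against 2.98%. The shorter interferon form and the TGATG variant were added after these promoters had been seen. The 4 printed stretches resemble each other along their length, so their matches are not separate observations. Resemblance over all 11 promoters was not measured, and their matches may not be separate either. The NF-kB form, the shorter interferon form and the pair with TGATG allowed were present in H2-Q4 and H2-Q6 and also in heavy chains that did not pass the test. The pair with TGACG alone was found only in heavy chains that did not pass, H2-D1, H2-K1, H2-M3 and H2-Q7. H2-Q5 and H2-K2, which passed the test, had no matched promoter, so the passing heavy chains were compared through H2-Q4 and H2-Q6 only.

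Of the 4 heavy-chain calls, 3 lay in the Q region, the cluster of nonclassical class I genes that follows H2-D1 on the chromosome and includes the genes of the Qa-2 antigens. Of its 8 genes 6 passed the filter. Of these 3 were called higher (50%), against 5.53% of all genes tested. All 6 were non-overlapping and higher, against the 31.1% of all genes given above. The genes of this region share sequence, as described below, so their values may not be separate observations. H2-Q6 (chr17:35424850-35430055), a Qa-2 gene, measured 383 and 311 CPM in wild type 13 and 15 against 597 and 680 CPM in knockout-labelled 22 and 24. Its log2 fold change was 0.88 ± 0.14 (SE), a 1.84-fold difference, with an adjusted p of 0.0219. Both knockout-labelled libraries lay far above both wild-type ones, with a gap between groups larger than the gap within either.

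H2-Q5 (chr17:35394126-35397800), annotated in GENCODE as a polymorphic pseudogene, measured 119 and 105 CPM against 191 and 187 CPM, a log2 fold change of 0.75 ± 0.13 with an adjusted p of 0.0235. H2-Q4 (chr17:35379617-35385290) measured 486 and 438 CPM against 685 and 660 CPM, a log2 fold change of 0.54 ± 0.11 with an adjusted p of 0.0347. In both genes library 22 stood at or slightly above library 24, unlike in most heavy chains. H2-Q7, the other Qa-2 gene measured, had the highest CPM of the region, although the FPKM of H2-Q6 were higher in every library. H2-Q7 stood at 962 and 795 CPM against 1189 and 1300 CPM. Its log2 fold change was 0.50 ± 0.13 with an adjusted p of 0.0560, which misses the threshold (0.0220 with DESeq2). H2-Q2 (4.54 and 3.82 against 6.49 and 9.26 CPM, adjusted p 0.0782) and H2-Q10, known as a secreted class I molecule of the liver (1.65 and 1.07 against 3.15 and 2.36 CPM, adjusted p 0.140), were low and also missed it. As a share of all heavy-chain counts, the Q region made up 26.8% and 25.5% in wild type and 31.7% and 28.3% in the knockout-labelled libraries.

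H2-K2 (chr17:33974831-33978790), a transcribed pseudogene beside H2-K1, was higher as well, at 23.7 and 19.9 CPM in wild type against 34.7 and 38.6 CPM in the knockout-labelled libraries. The log2 fold change was 0.75 ± 0.16 and the adjusted p 0.0385. The functional neighbour H2-K1, a classical heavy chain that presents peptides to CD8 T cells, did not pass. Its levels were 2142 and 1877 CPM in wild type against 2090 and 2717 CPM in the knockout-labelled libraries, so library 22 lay between the wild-type ones, and the log2 fold change was 0.26 ± 0.15 with an adjusted p of 0.282. H2-D1, the other classical heavy chain of this strain, measured 2468 and 2315 CPM against 2863 and 3524 CPM, with no overlap, a log2 fold change of 0.42 ± 0.13 and an adjusted p of 0.0809.

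In the T region, 5 of 6 genes passed the filter and 0 were called by edgeR's test, DESeq2 or limma, while 3 had an unadjusted p below 0.05. H2-T23, which encodes the Qa-1 ligand of the CD94/NKG2 receptors, measured 287 and 252 CPM in wild type against 328 and 385 CPM in the knockout-labelled libraries (log2 fold change 0.40 ± 0.13, adjusted p 0.0978). H2-T22, a ligand of some gamma-delta T cell receptors, measured 305 and 279 against 353 and 419 CPM (0.40 ± 0.13, adjusted p 0.0943). Both were non-overlapping with library 24 the highest, as was the related H2-T10 at 61.3 and 55.5 against 64.8 and 81.8 CPM (0.33 ± 0.16, adjusted p 0.208). H2-T24 went the other way, at 3.98 and 3.35 against 1.94 and 2.23 CPM, with a log2 fold change of -0.81 ± 0.31 and an adjusted p of 0.133, and H2-Bl (0.805 to 1.28 CPM) overlapped between groups.

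Most M region genes were silent: 11 of 14 had 0 counts in every library and 2 passed the filter. H2-M3, which presents peptides with a formylated end, was flat at 41.9 and 36.0 CPM in wild type against 35.4 and 41.9 CPM in the knockout-labelled libraries (log2 fold change -0.010 ± 0.15, adjusted p 0.970). H2-M2 held few counts, 25 and 32 in wild type and 4 and 10 in the knockout-labelled libraries. Its log2 fold change of -1.99 ± 0.54 was the largest in size among the 45 genes, yet the adjusted p was 0.0635.

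These heavy-chain genes are near copies of each other, and values for single genes are uncertain where the authors' counting could have split reads between them. Of the distinct 50-base windows in their GENCODE transcripts, another gene shared 36.4% for H2-Q5 (25.5% with H2-Q7), 32.0% for H2-Q6, 26.4% for H2-Q7, 21.8% for H2-Q4, 34.5% for H2-T22 and 32.9% for H2-T10, but 12.8% for H2-D1, 9.63% for H2-K1 and 9.38% for H2-K2. The sum over heavy chains does not depend on how reads were split among them. Some of them also share windows with gene models outside that sum, such as Gm11127 and Gm7030, and reads split with those could change it. Without wild type 15, 0 of the 4 calls were kept (adjusted p 0.152 for H2-Q6, 0.243 for H2-Q5, 0.316 for H2-K2 and 0.350 for H2-Q4), and without wild type 13 H2-Q6 alone of them was kept (0.0418, against 0.115 for H2-Q5, 0.128 for H2-K2 and 0.167 for H2-Q4). Without knockout-labelled 22 the adjusted p of H2-K1, H2-D1, H2-Q2, H2-Q7, H2-T10, H2-T22 and H2-T23 ranged from 0.0191 for H2-D1 to 0.0464 for H2-K1, and without knockout-labelled 24 that of H2-M2 was 0.0375. On log2(FPKM + 1) values with limma, H2-Q4 missed the threshold (adjusted p 0.0542).

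**Figure D3:**
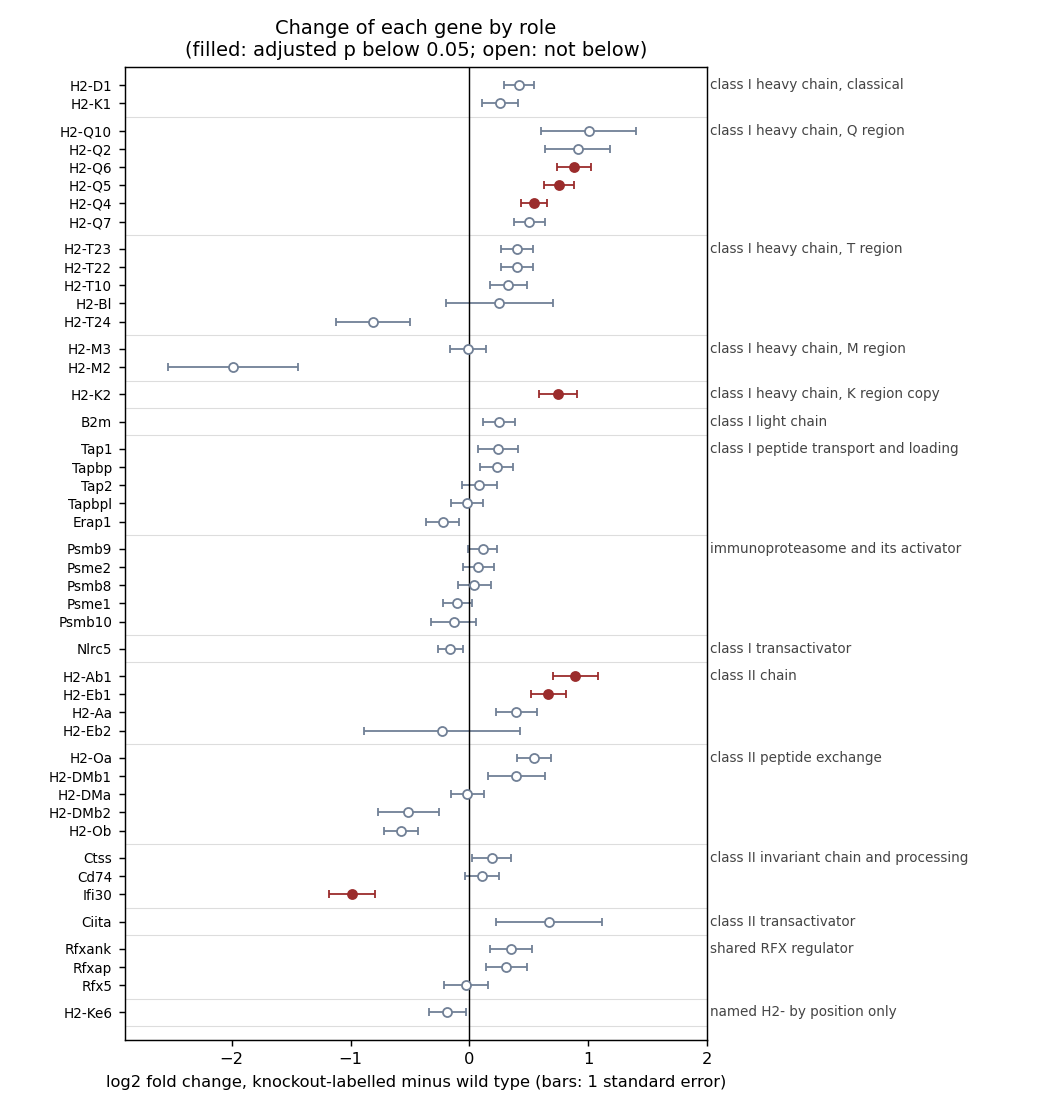
Log2 fold change (knockout-labelled minus wild type) of each of the 45 genes, ordered by role, with bars of 1 standard error; filled red points have an adjusted p below 0.05 and open points do not. The 6 Q region genes all lie at 0.50 or above, whereas the genes of peptide transport and of the immunoproteasome lie between -0.23 and 0.24.

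The rest of the class I pathway held no call. Of 12 genes, all of which passed the filter, 0 were called higher or lower by edgeR's test, by DESeq2 or by limma. With edgeR's test 10.1% of all genes tested were called, a share that leaves few calls to be had among 12 genes. Of the 12, 0 had an unadjusted p below 0.05, and their median log2 fold change was 0.058. In 3 the groups did not overlap with the knockout-labelled libraries higher and in 3 with them lower (50%, against 63.8% of all genes tested). B2m, the light chain, measured 2214 and 1896 CPM in wild type against 2223 and 2671 CPM in the knockout-labelled libraries, a log2 fold change of 0.25 ± 0.13 with an adjusted p of 0.247. The knockout-labelled libraries stood above the wild-type ones, but library 22 by less than 10 CPM. The transporter gene Tap1 was 262 and 255 CPM in wild type against 355 and 255 CPM in the knockout-labelled libraries, so that library 22 stood above the rest and library 24 at the wild-type level (0.24 ± 0.17, adjusted p 0.373). Its partner Tap2 measured 197 and 183 against 177 and 225 CPM (0.08 ± 0.15, adjusted p 0.732), with library 22 the lowest.

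Tapbp, the gene of tapasin, measured 288 and 271 CPM in wild type against 292 and 364 CPM in the knockout-labelled libraries (log2 fold change 0.23 ± 0.14, adjusted p 0.304). Tapbpl, an editor of the loaded peptide, stayed between 39.2 and 45.4 CPM, and Erap1, the trimming aminopeptidase, measured 112 and 133 against 104 and 106 CPM (-0.23 ± 0.14, adjusted p 0.307). The immunoproteasome subunits Psmb8, Psmb9 and Psmb10 had log2 fold changes of 0.04 ± 0.14, 0.11 ± 0.12 and -0.13 ± 0.19, and the subunits of its activator, Psme1 and Psme2, of -0.10 ± 0.12 and 0.07 ± 0.13. Nlrc5, the class I transactivator, was somewhat lower in both knockout-labelled libraries, at 350 and 345 CPM in wild type against 305 and 316 CPM there, with a log2 fold change of -0.16 ± 0.11 and an adjusted p of 0.347. Thus the groups did not overlap in Nlrc5, but in the direction opposite to most heavy chains. Leaving out knockout-labelled 24 gave Tap1 a log2 fold change of 0.45, and leaving out knockout-labelled 22 gave it -0.0092. For Tapbp the values were 0.057 without knockout-labelled 24 and 0.39 without knockout-labelled 22.

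**Figure D4:**
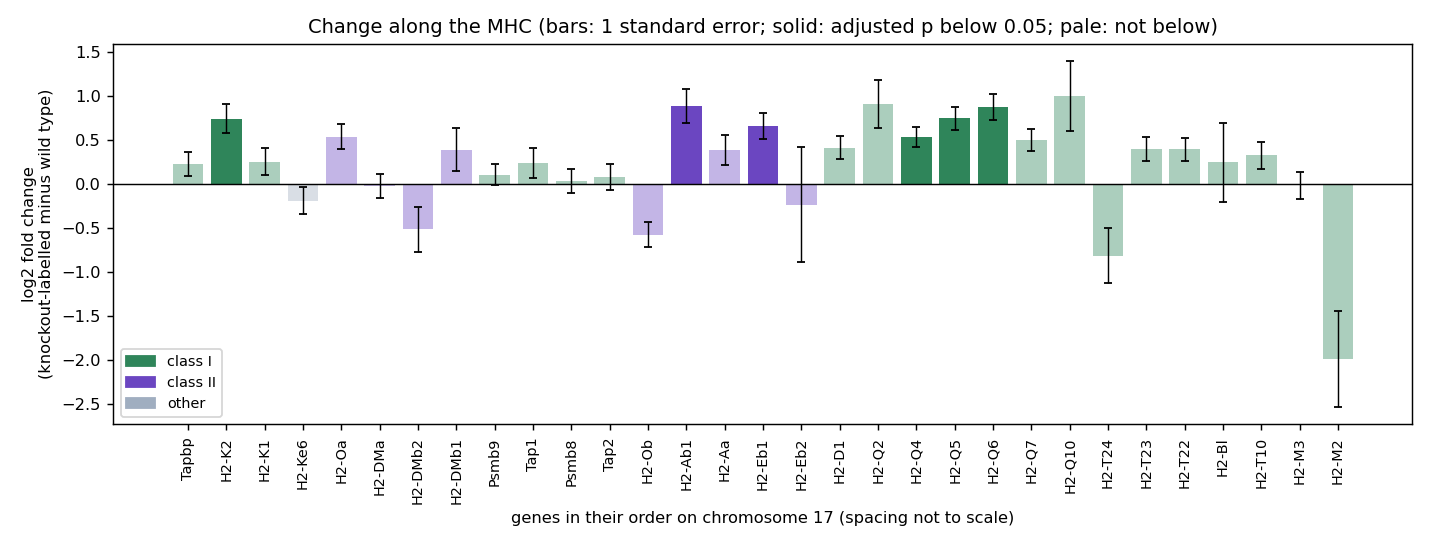
Log2 fold change (knockout-labelled minus wild type, bars of 1 standard error) of the 31 genes on chromosome 17 that passed the filter, in their order along the chromosome and not to scale; class I is green, class II violet, and solid bars have an adjusted p below 0.05. The higher genes stand in 3 places, at H2-K2, at H2-Ab1 and H2-Eb1 and from H2-Q4 to H2-Q6, while Psmb9, Tap1, Psmb8 and Tap2 lie at 0.04 to 0.24 and H2-Ob, next to H2-Ab1 in this order, lies at -0.58.

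Among class II genes, 13 of 16 passed the filter. Of these 2 were higher and 1 lower, which is 23.1% against 10.1% of all genes tested, and the median log2 fold change was 0.19. The summed level of the class II chain genes was 87.0 and 71.8 CPM in wild type 13 and 15 against 128 and 121 CPM in knockout-labelled 22 and 24, a ratio of 1.57. H2-Ab1 (chr17:34263209-34269418), the beta chain of the I-A molecule, measured 18.2 and 14.0 CPM in wild type against 28.1 and 31.6 CPM in the knockout-labelled libraries. Its log2 fold change was 0.89 ± 0.19, a 1.85-fold difference, with an adjusted p of 0.0377. H2-Eb1 (chr17:34305877-34316199), the I-E beta chain, measured 48.6 and 40.6 CPM against 74.6 and 66.6 CPM, a log2 fold change of 0.66 ± 0.15 with an adjusted p of 0.0409. The groups did not overlap in either gene.

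H2-Aa (chr17:34282744-34287827), the I-A alpha chain that pairs with the product of H2-Ab1, measured 19.2 and 16.1 CPM in wild type against 23.6 and 22.8 CPM in the knockout-labelled libraries. The groups did not overlap, but the log2 fold change of 0.39 ± 0.17 had an adjusted p of 0.173. H2-Eb2, a little-used beta chain gene, lay between 0.383 and 1.54 CPM with the extremes both in the knockout-labelled group (adjusted p 0.835). The class II chains hardly share sequence with other genes, with 0.49% of 50-base windows shared for H2-Aa and 0 for H2-Ab1 and H2-Eb1. The invariant chain Cd74 did not follow the beta chains: it measured 45.2 and 37.5 CPM against 42.7 and 46.3 CPM, with a log2 fold change of 0.11 ± 0.15 and an adjusted p of 0.650.

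The peptide exchange genes split. DO, made of the products of H2-Oa and H2-Ob, restrains the exchange factor DM. H2-Oa measured 29.2 and 26.0 CPM in wild type against 39.4 and 40.9 CPM in the knockout-labelled libraries (log2 fold change 0.54 ± 0.14, adjusted p 0.0565), whereas H2-Ob measured 33.3 and 34.7 against 23.0 and 22.7 CPM (-0.58 ± 0.14, adjusted p 0.0515). The genes for the partner chains of 1 molecule thus stood apart in opposite directions, each without overlap and each just short of the threshold. Of the DM genes, H2-DMa was flat at 86.4 and 78.2 against 76.3 and 86.0 CPM (-0.02 ± 0.14), and H2-DMb1 (5.15 and 4.43 against 5.89 and 6.70 CPM) and H2-DMb2 (8.40 and 7.31 against 4.55 and 6.45 CPM) pointed in opposite directions with adjusted p values of 0.304 and 0.222. H2-DMb1 and H2-DMb2 share 22.7% and 24.8% of their 50-base windows with other genes, mainly each other.

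Ifi30 (chr8:70762774-70766663) showed the only call in the lower direction. It measured 80.9 and 84.1 CPM in wild type against 33.8 and 49.1 CPM in the knockout-labelled libraries, a log2 fold change of -0.99 ± 0.19, or a 1.99-fold lower level, with an adjusted p of 0.0308. The wild-type libraries were nearly equal, and library 22 was the lowest. Ctss, the protease of invariant chain breakdown, measured 250 and 230 against 233 and 314 CPM (0.19 ± 0.16, adjusted p 0.473), so the groups overlapped. Without wild type 15 the adjusted p was 0.279 for H2-Ab1, 0.354 for H2-Eb1 and 0.102 for Ifi30, without wild type 13 it was 0.0757, 0.127 and 0.0626, and without knockout-labelled 22 that of H2-Eb1 was 0.0512. Over the fits that left out a library, the log2 fold change ranged from 0.45 to 0.62 for H2-Oa and from -0.61 to -0.55 for H2-Ob. For Ctss it ranged from -0.052 to 0.40. With limma on log2(FPKM + 1) H2-Ab1 (adjusted p 0.0551) and H2-Eb1 (0.0518) missed the threshold.

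The promoter stretches of H2-Aa, H2-Eb1 and H2-Ob are shown for a chain that passed the test, H2-Eb1, beside chains that did not. They lie at chr17:34287862-34287959 on the minus strand for H2-Aa and, on the plus strand, at chr17:34305776-34305817 for H2-Eb1 and chr17:34238821-34238857 for H2-Ob, in GRCm38.p6 from RefSeq. Capitals mark the X2 form and the Y box as above and, in H2-Aa, also the NF-kB form at the left.
H2-Aa: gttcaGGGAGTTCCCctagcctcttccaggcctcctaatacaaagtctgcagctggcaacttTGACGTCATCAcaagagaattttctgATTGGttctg
H2-Eb1: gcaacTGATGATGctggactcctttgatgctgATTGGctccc
H2-Ob: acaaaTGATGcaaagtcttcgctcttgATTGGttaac

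The X2 form with a Y box downstream was thus present both in H2-Eb1, which was higher, and in H2-Ob, whose knockout-labelled levels lay below the wild-type ones. It was found in 6 of the 10 class II promoters that were matched, counting TGATG, and in 1 of 10, H2-Aa, with TGACG alone, against the shares of all promoters given above. The Y box by itself was present in 8 of 10. The interferon form was found in 1 of 10, the promoter of Ctss, and the NF-kB form in 2 of 10, H2-Aa and H2-Oa. These letters describe the sequence only, and binding was not measured.

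Ciita, whose product switches class II genes on, was low but measurable, with 30 and 33 counts in wild type and 66 and 32 in the knockout-labelled libraries. This corresponds to 1.84 and 2.21 CPM against 4.42 and 2.04 CPM, a log2 fold change of 0.67 ± 0.44 with an adjusted p of 0.340. Library 22 alone stood above the others. The RFX genes Rfxap (20.5 and 16.9 against 23.4 and 23.0 CPM) and Rfxank (28.7 and 28.6 against 31.3 and 41.9 CPM) were non-overlapping and higher, with log2 fold changes of 0.31 ± 0.17 and 0.35 ± 0.18 and adjusted p values of 0.264 and 0.224. Rfx5, which encodes the largest subunit, overlapped at 42.9 and 38.9 against 46.8 and 33.3 CPM. Rfxank had a log2 fold change of 0.56 without knockout-labelled 22 and 0.12 without knockout-labelled 24. H2-Ke6, which takes no part in presentation, overlapped at 35.9 and 30.7 against 27.6 and 30.8 CPM (adjusted p 0.442), and 70.5% of its 50-base windows are shared with the gene model Gm20427.

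A list of 22 inputs to class I and class II was made up of interferon and NF-kB genes and the TGF-beta receptor chains Tgfbr1 and Tgfbr2. By edgeR's test 0 were higher and 1 was lower (4.55%, against 10.1% of all genes tested), and their median log2 fold change was 0.22. Of the 22, 12 were non-overlapping and higher and 4 non-overlapping and lower, which is 72.7% against 63.8% of all genes tested. At an unadjusted p below 0.05, 4 were higher and 2 lower, DESeq2 called 2 in each direction, and limma called the same 1 gene. Ifng, the main inducer of both pathways, measured 18.4 and 14.7 CPM in wild type against 11.4 and 17.3 CPM in the knockout-labelled libraries (adjusted p 0.605). Irf1, a transcription factor that mediates its signal, overlapped too, at 76.8 and 77.7 against 70.3 and 93.0 CPM (adjusted p 0.772). The gene that was lower was Tgfbr1, a signalling receptor chain and neither an interferon nor an NF-kB gene, at 162 and 161 against 92.8 and 101 CPM (log2 fold change -0.73 ± 0.12, adjusted p 0.0234, but 0.143 without wild type 13 and 0.174 without wild type 15). Irf2 and Jak2 were non-overlapping and higher but missed the threshold, with adjusted p values of 0.0663 and 0.0718.

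Beyond these members, of 28 supporting genes of class I, 24 passed the filter, 1 was higher and 1 lower, which is 8.33% against 10.1% of all genes tested. Hspa5, the endoplasmic reticulum chaperone BiP, measured 366 and 347 CPM in wild type against 541 and 520 CPM in the knockout-labelled libraries (log2 fold change 0.57 ± 0.11, adjusted p 0.0289), and Psme3, a nuclear proteasome activator, 151 and 170 against 105 and 115 CPM (-0.55 ± 0.13, adjusted p 0.0483). Of the 19 supporting genes of class II that passed, 3 were higher and 1 lower (21.1%), and the difference between these shares was not tested. The median log2 fold change of the 19 was -0.14. Of them 10 were non-overlapping and lower and 5 non-overlapping and higher. Lag3, an inhibitory receptor of T cells that binds class II, measured 165 and 149 against 276 and 270 CPM (0.79 ± 0.12, adjusted p 0.0189), and the lysosomal proteases Ctsd and Ctsb were also higher, by 0.63 ± 0.12 and 0.57 ± 0.12 on the log2 scale (adjusted p 0.0308 and 0.0340). Lamp1, a protein of the lysosomal membrane, was lower at 187 and 192 against 98.6 and 107 CPM (-0.88 ± 0.12, adjusted p 0.0165). Without wild type 15 these adjusted p values lay between 0.114 for Lamp1 and 0.417 for Psme3, and without wild type 13 between 0.0756 and 0.202 for the same genes.

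Set side by side, the classes differed in which knockout-labelled library stood further from wild type. The median log2 distance from the wild-type mean was 0.070 in library 22 and 0.38 in library 24 over the 28 class I genes, and 0.30 and 0.17 over the 13 class II genes. Over all genes tested it was -0.0061 in library 22 and -0.0059 in library 24. Within class I it was 0.28 and 0.52 for heavy chains and -0.061 and 0.12 for the remaining 12 genes. Library 24 exceeded 22 in 24 of the 28 class I genes and in 8 of the 13 class II genes. Without library 24 the median log2 fold change was 0.060 for class I and 0.29 for class II, and without library 22 it was 0.39 and 0.17, so the order of the class medians rested on which knockout-labelled library was used. The difference between the classes was not tested.

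Because class II is a product of professional antigen-presenting cells, their markers were measured in the same libraries. B cell markers were low: of 18, 15 passed the filter, 12 were non-overlapping and higher, 1 was non-overlapping and lower, and 1, Igkc, passed the test (2.94 and 2.08 against 8.03 and 6.83 CPM, log2 fold change 1.56 ± 0.29, adjusted p 0.0276). Of all genes tested, 31.1% were non-overlapping and higher and 32.7% non-overlapping and lower. The share called was 6.67% of the 15 markers and 10.1% of all genes tested. Their sum was 250 and 253 CPM in wild type against 345 and 370 CPM in the knockout-labelled libraries. Ighm held most of it, and without Ighm the sum was 43.7 and 41.7 against 98.1 and 62.0 CPM, with library 22 the highest. Ms4a1 measured 2.39 and 1.54 against 5.09 and 2.94 CPM (adjusted p 0.144), and 0 of the 18 markers were at 0 in all libraries.

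The summed markers of other presenting cells overlapped between the groups. Of 13 dendritic cell markers 8 passed the filter, with Xcr1, Cd209a and Siglech at 0 throughout. The sum of the 13 was 176 and 154 CPM in wild type against 150 and 156 CPM in the knockout-labelled libraries. Cst3 held much of this sum, at 83.7 and 76.2 CPM in wild type against 84.4 and 95.7 CPM, and the sum without it was not taken. Of the 8 that passed, 4 were non-overlapping and higher and 3 non-overlapping and lower, against 31.1% and 32.7% of all genes tested. Zbtb46 was higher (9.32 and 7.18 against 25.4 and 19.1 CPM, adjusted p 0.0217), while Ccl22 (37.7 and 35.6 against 6.96 and 12.1 CPM, adjusted p 0.0161) and Flt3 (7.42 and 4.16 against 2.01 and 1.79 CPM, adjusted p 0.0449) were lower, and Itgax overlapped at 5.04 to 8.37 CPM. The share called was 37.5% of the 8 dendritic cell markers that passed the filter, against 10.1% of all genes tested. Macrophage and monocyte markers summed to 31.4 and 38.0 against 33.1 and 43.7 CPM, with none of 14 at 0 in all libraries. Of these macrophage and monocyte markers 9 passed the filter and 1 was lower (11.1%), C1qb at 0.858 and 0.671 against 0.0669 and 0 CPM. Lyz2 (5.62 to 14.5 CPM) and Csf1r (0.537 to 1.94 CPM) overlapped. Natural killer cell markers summed to 23.0 to 24.3 CPM in wild type and 9.83 to 15.1 CPM in the knockout-labelled libraries, but Eomes, which was lower, held most of this, and without it the sum was 1.65 and 1.34 against 4.89 and 2.3 CPM. Among the marker calls, Igkc was lost without wild type 13 (adjusted p 0.0513) or 15 (0.144), Zbtb46 without wild type 15 (0.0929), Flt3 on leaving out any of the 4 libraries (0.0507 to 0.275) and C1qb without 15, 22 or 24 (0.0582 to 0.214; without 13 it did not pass the filter), while Ccl22 was kept in all 4 fits.

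In bulk RNA, a change in the number of cells of a type and a change in RNA per cell cannot be told apart. The summed B cell markers were higher in libraries 22 and 24, as H2-Ab1 and H2-Eb1 were, although 1 marker of 15 passed the test, and Cd74 and Ciita, which B cells also express, were not called; the part of B cells in the class II result was not tested.

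**Figure D5:**
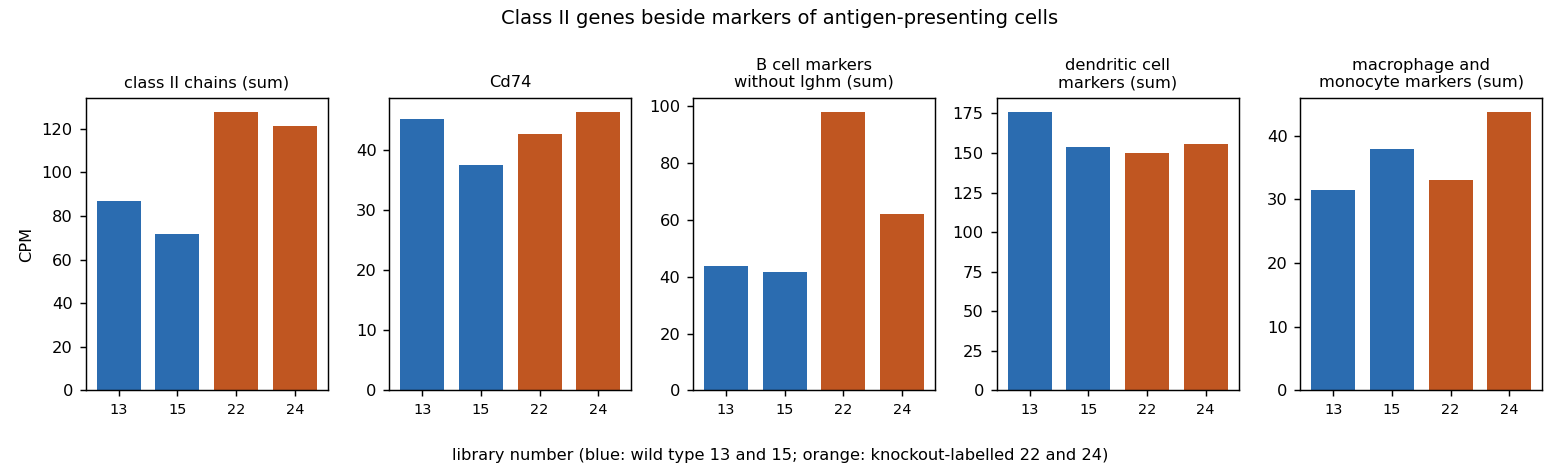
Summed CPM of the class II chains, CPM of Cd74, and summed CPM of B cell markers without Ighm, dendritic cell markers, and macrophage and monocyte markers in each library, with wild-type libraries in blue and knockout-labelled libraries in orange; each panel has its own axis from 0. The summed class II chains (71.8 to 128 CPM) and summed B cell markers (41.7 to 98.1 CPM) are higher in libraries 22 and 24 than in 13 and 15. Cd74 and the summed markers of dendritic cells and of macrophages and monocytes overlap between groups. The dendritic cell sum includes Cst3 at 76.2 to 95.7 CPM.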

How the data were processed

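Per the submitters' processing notes, the tools were Bowtie2 and RSEM and the genome was GRCm38.p6 (mm10); the sources used here name no annotation, counting options or use of strand. The authors' deposited table holds whole-number counts per gene and FPKM, and 0 of its per-sample columns were left unmapped. Counts were filtered (edgeR 4.0.16 filterByExpr, minimum count 10, minimum total 15), scaled by TMM (factors 1.02, 1.02, 0.959 and 1.00 for libraries 13, 15, 22 and 24) and compared with edgeR's quasi-likelihood test in R 4.3.3, two-sided, with Benjamini-Hochberg adjustment over all 13279 genes tested and a threshold of 0.05. The adjusted p-values in the text come from this test unless another tool is named. The standard error is the size of the log2 fold change over the square root of F and is approximate. CPM use the scaled library sizes.

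The inference rests on spread shared across genes, since an exact test of 2 against 2 libraries cannot give a p below 0.333. Replicates differed beyond counting noise (chi-square per degree of freedom 7.82 for 13 and 15, 23.0 for 22 and 24). Floors cover counting error only. Members and lists were chosen with earlier results of these data known. Named were members that passed the filter, class II genes, Setd2, Foxp3, Ifng, Irf1, Cd4, Cd3e, Ms4a1, Itgax, Lyz2 and Csf1r. Up to 3 genes per list by adjusted p were also named (not every gene so taken is reported here). Cd8a, Cd8b1, Tgfbr2, Ighm, Cst3 and the genes at 0 were named after their values were seen. Shared windows and lengths came from GENCODE M21 transcripts. Alternatives were other scalings, filters, DESeq2 1.42.0, limma 3.58.1 on log2(FPKM + 1) and log2(FPKM + 0.1), and each library left out.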

Additional observations from a re-analysis of the deposited data

How the results depend on the processing

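The 7 calls were all kept with DESeq2 size factors, with library totals only, without the filter on low counts, with at least 5 CPM in 2 libraries, and with DESeq2; limma kept 4 of them with either pseudocount. Counts of antigen presentation genes called higher and lower were 10 and 3 without the filter (1261 and 1088 over all genes), 6 and 2 with library totals only, 3 and 2 with limma on log2(FPKM + 1) (445 higher over all genes) and 3 and 1 on log2(FPKM + 0.1) (457 higher). Leaving out each library in turn gave 0 (without wild type 15) to 16 (without knockout-labelled 22) higher and 0 to 3 lower, and over all genes 120 to 2122 higher and 70 to 2002 lower; a lone library is then assumed to vary like the other group. Over the fits that left out a library the class medians ranged from 0.060 to 0.39 for class I and from 0.12 to 0.29 for class II (0.11 with limma), with both extremes of class I set by leaving out a knockout-labelled library. Of the values of single members under the alternatives, 423 kept direction and call, 20 lost the call, 26 gained it and 20 changed sign, the cause of which was not tested. The sign changes were all in genes not called: Psmb8 was -0.014 with library totals only and -0.022 and -0.023 with limma on log2(FPKM + 1) and log2(FPKM + 0.1), and H2-M3 was 0.0053 at 5 CPM. Over the fits that left out a library, log2 fold changes that crossed 0 ranged from -0.14 to 0.12 for H2-M3, -0.0092 to 0.45 for Tap1, -0.11 to 0.26 for Tap2, -0.13 to 0.081 for Tapbpl, -0.11 to 0.19 for Psmb8, -0.41 to 0.11 for Psmb10, -0.0085 to 0.15 for Psme2, -0.11 to 0.074 for H2-DMa, -1.52 to 0.45 for H2-Eb2, -0.030 to 0.24 for Cd74, -0.052 to 0.40 for Ctss and -0.29 to 0.19 for Rfx5. No paired analysis was possible because the groups share no replicate number. Depth limits H2-Eb2, H2-Bl, H2-M2, H2-Q10, Ciita and the genes under the filter, which held few counts.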
